A study of Mus musculus with 10 samples.

Results

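Homeobox genes encode transcription factors that bind DNA through a homeodomain. The 41 homeobox genes described here lie outside the Hox clusters and were given as a list by name, out of 31053 genes in the files: the zinc-finger homeobox genes Zfhx3 and Zfhx4, the 4 genes Six2 to Six5, 6 LIM, 6 DLX, 4 MSX and EMX, 6 paired-like, 7 TALE (three-amino-acid-loop) genes, 4 NK-like, BARX and PDX genes, and Onecut2 and Satb1. All 41 symbols matched exactly 1 gene each. They were measured by droplet-based 3′ single-cell RNA sequencing in 8 libraries of mouse small intestinal organoids, which are epithelial cultures grown in a gel from crypts of the proximal small intestine, and in 2 libraries of colonic crypts. ENR-organoids (3 libraries, passages 2, 7 and 3) were kept in medium containing R-Spondin 1, Noggin and EGF. Hyper-organoids (3 libraries, passages 1, 6 and 3) grew with EGF, R-Spondin 1 conditioned medium, FGF2, LDN193189, GSK-3 Inhibitor XV, Pexmetinib, VPA and EPZ6438, and -VE-organoids (2 libraries, passages 1 and 6) grew in that medium without VPA and EPZ6438. Replicates 1, 2 and 3 are the libraries named with 2, 6 and C in the labels, here called culture series. The labels do not say whether series 2 and 6 were separate cultures or 1 culture at different passages. Their libraries may therefore not be independent. In series 2 and 6 the Hyper- and -VE-organoids were derived from ENR-organoids, and both libraries of series C came from primary crypts. The study's methods give an age of 6 to 12 weeks for mice used for organoid culture, and females aged 8 weeks for its colitis model. The strain of the mice behind these libraries, and whether organoids of a library came from 1 mouse or several, were not given in the sources used here, so p-values measure the spread between these libraries. For colon, 1 library was made from crypts of normal mice and 1 from mice that had received dextran sulfate sodium (DSS), which injures the colonic epithelium.

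Many developmental homeobox genes are kept off in adult epithelia by Polycomb complexes, which place trimethylation on lysine 27 of histone H3 through the methyltransferase EZH2. EPZ6438 inhibits EZH2, and VPA inhibits histone deacetylases. These genes are better known for patterning limbs, head, eye and brain than for a role in the gut, with exceptions such as Pdx1, which marks the proximal small intestine and pancreas. Chromatin data were not analysed here, so the Polycomb marks of the 41 genes in these cells are not described. The list was drawn up as genes silent in adult gut, and the ENR-organoids went against that for 10 of the 41 genes, which reached at least 1 CPM (the UMIs, or unique molecular identifiers, of a gene, as counts per 1e6 UMIs of a library) in at least 1 ENR library. The other 31 stayed under 1 CPM in every ENR library, and 9 genes had 0 UMIs in all 3.

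Each library held 1983 to 4293 kept cells for organoids, with 89124015 to 170019527 UMIs, so that 3 UMIs, the count taken as the floor for a gene at 0, correspond to 0.0176 to 0.0337 CPM. Libraries shared between 0 and 5 barcodes of kept cells per pair. The summed level of 10 gut epithelium genes was 4159 to 5159 CPM for Hyper- and 4612 to 4934 CPM for ENR-organoids. Sums of marker lists are CPM without TMM adjustment, whose factors were 1.05 to 1.06 in Hyper and 0.940 to 0.994 in ENR libraries. Of the 10 genes, 5 had an edgeR adjusted p under 0.05 in Hyper- against ENR-organoids, where 9111 of the 16037 genes tested did. Cdx1 was called lower. Markers of other tissues were low. The 9 mesenchyme markers summed to 1.20 to 1.26 CPM in Hyper- against 0.381 to 0.586 CPM in ENR-organoids. Of these, Col1a1 (0.0454 to 0.406 CPM), Des (0.00278 to 0.264 CPM) and Pdgfra (0.0151 to 0.146 CPM) were called higher than in ENR-organoids by edgeR, with adjusted p of 0.000169, 0.000359 and 0.0166, whereas Pdgfrb was 0.399 CPM in ENR- and 0.244 CPM in Hyper-organoids, and Col1a2, Col3a1, Dcn, Lum and Acta2 did not pass the filter on low counts. The 6 markers of neurons and glia summed to 5.97 to 9.84 against 2.20 to 2.91 CPM, with Ret giving most of the Hyper UMIs and 0 UMIs of Sox10 in 2 of the 3 Hyper libraries. Of these 6 markers, 2, 2 and 0 were at 0 UMIs in Hyper replicates 1, 2 and 3, and 1, 2 and 2 in the ENR replicates. The 4 endothelial markers summed to 0.443 to 0.746 against 0.314 to 0.483 CPM and the 7 leukocyte markers to 4.32 to 5.73 against 4.08 to 4.36 CPM. Of the 7 leukocyte markers, 2, 2 and 1 were at 0 UMIs in Hyper replicates 1, 2 and 3, and 2, 1 and 2 in the ENR replicates. The leukocyte gene Ptprc, among these markers, had 0 UMIs in all 8318 cells of the Hyper libraries. The part of such cells in the results below was not tested.

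UMIs were summed per gene and library, and the 3 media were compared in 1 fit with edgeR's quasi-likelihood test. A call needed a change of at least 2-fold and a p under 0.05 after Benjamini-Hochberg adjustment over all genes tested. Of the 41 genes, 24 passed the filter on low counts and 17 did not, none of which had more than 50 UMIs over the 8 libraries. In Hyper- against ENR-organoids, 14 of the 24 genes tested were called higher, where 18.2% of the 16037 genes tested were called higher. None was called lower, where 4.75% of the genes tested were. Against -VE-organoids, 15 were called higher (16.1% of genes tested) and none lower (2.51%), and 13 genes were called higher in both. Both comparisons use the same Hyper libraries. In -VE- against ENR-organoids edgeR called none of the 41 genes higher (1.35% of genes tested) or lower (1.2%). There, 3 genes had an unadjusted p under 0.05, and DESeq2 called 2 genes, Lhx1 and Prrx1, lower. Over the 24 genes that passed the filter the median log2 change was 2.18 against ENR-organoids, beside a median of -0.01 over all genes tested. Genes that passed the filter only through their Hyper libraries had to be higher there, such as Emx2 and Alx4 with 0 UMIs elsewhere. This holds for the counts of genes called higher, here and within classes, as for this median. The list was also chosen with earlier results of these data known, so these counts and this median are given as a description.

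**Figure D1:**
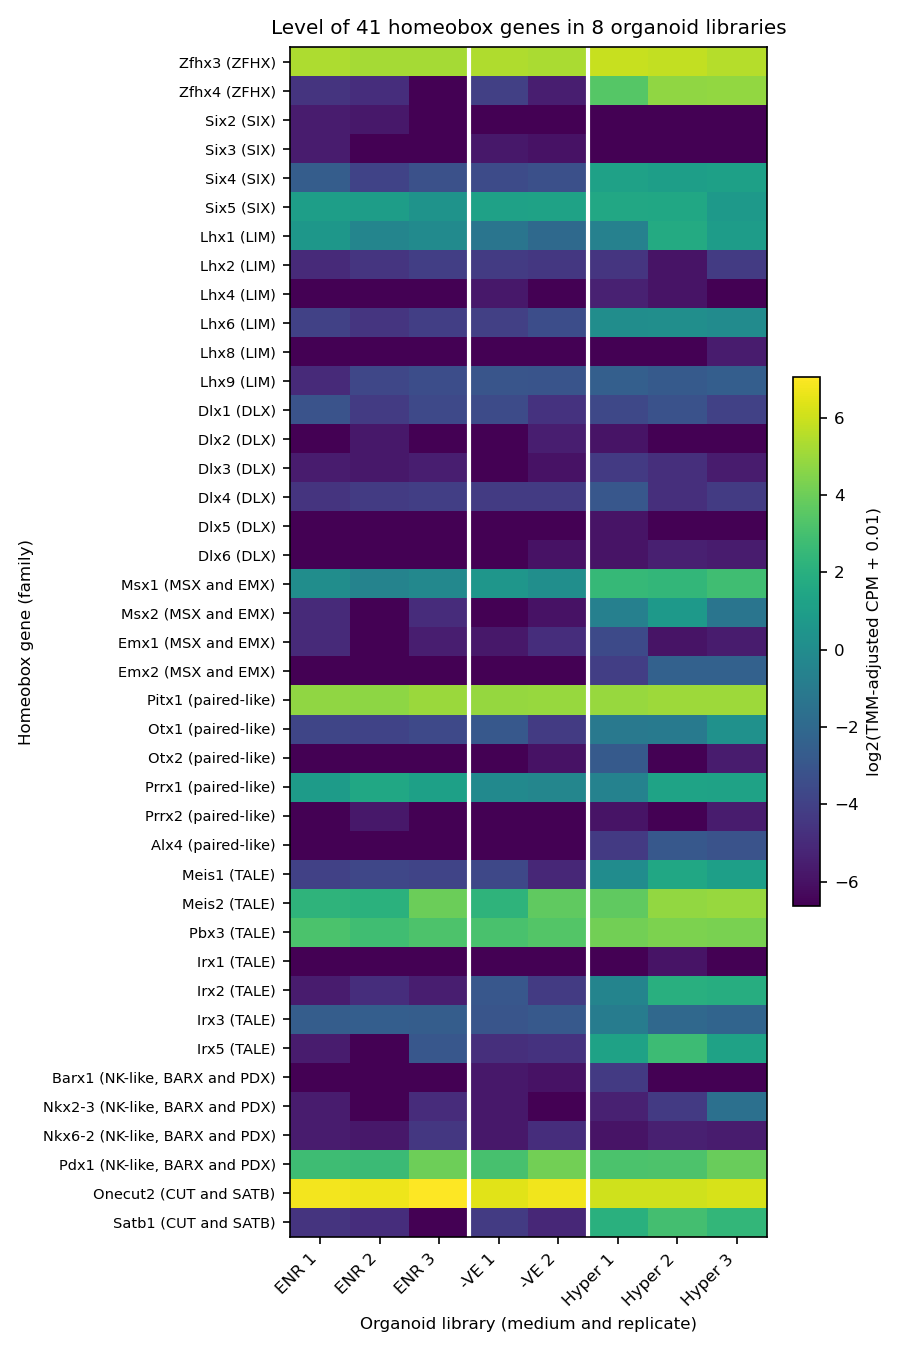
Heat map of log2(TMM-adjusted CPM + 0.01), by colour, for the 41 homeobox genes (rows, grouped by family) in the 8 organoid libraries (columns). Onecut2, Zfhx3 and Pitx1 were high in every library, Zfhx4, Satb1, Irx2 and Irx5 were near 0 outside the Hyper libraries, and the 6 Dlx genes stayed at or under 0.122 CPM in every library.

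Zfhx4 encodes a very large zinc-finger homeodomain protein expressed in the developing nervous system. Its level was 0.0311 and 0.0251 CPM in ENR replicates 1 and 2 and 0 UMIs in replicate 3, and 0.0513 and 0.0122 CPM in the -VE libraries. The Hyper libraries gave 10.9, 27.6 and 28.1 CPM, from 1610, 4164 and 2664 UMIs. Every Hyper library stood above every other library. The log2 change was 10.05 ± 0.65 (SE, n = 3 against 3, edgeR adjusted p = 9.96e-06) against ENR- and 9.54 ± 0.73 (n = 3 against 2, edgeR adjusted p = 6.27e-05) against -VE-organoids, the largest change of the 24 genes in both fits. Its relative Zfhx3 was expressed in all media, at 40.9, 37.1 and 36.6 CPM in ENR-, 42.5 and 39.2 CPM in -VE- and 59.5, 54.6 and 46.7 CPM in Hyper-organoids. Zfhx3 did not overlap between Hyper- and ENR-organoids, but its log2 change of 0.49 ± 0.09 (edgeR adjusted p = 0.00226) was under 2-fold.

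Satb1 organises chromatin in T cells and other cell types. It had 3, 3 and 0 UMIs in the ENR and 5 and 3 UMIs in the -VE libraries, against 607, 1173 and 508 UMIs, or 4.12, 7.78 and 5.36 CPM, in the Hyper libraries. The log2 change was 8.11 ± 0.51 against ENR- (edgeR adjusted p = 9.01e-06) and 7.59 ± 0.57 against -VE-organoids (edgeR adjusted p = 5.87e-05). In the Hyper libraries, 1726 of the 8318 cells held a Satb1 UMI. Onecut2, a cut-homeodomain factor of endoderm, was the most abundant of the 41 genes by UMIs. It went the other way, with 111, 103 and 133 CPM in ENR-, 86.3 and 109.9 CPM in -VE- and 65.7, 67.4 and 76.0 CPM in Hyper-organoids. Its log2 change was -0.73 ± 0.12 (edgeR adjusted p = 0.00121) against ENR-organoids, under 2-fold and so not called, although every Hyper library lay below every ENR and -VE library.

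Of Six2 to Six5, some of whose products work with EYA cofactors in muscle, kidney and sensory organs, only Six4 was called. Its Hyper levels of 2.25, 2.04 and 2.18 CPM were close to each other and far above the ENR levels of 0.155, 0.0585 and 0.0955 CPM and the -VE levels of 0.0770 and 0.0913 CPM. The log2 change was 4.40 ± 0.31 against ENR- (edgeR adjusted p = 1.59e-05) and 4.65 ± 0.37 against -VE-organoids (edgeR adjusted p = 8.01e-05). Six5 was present in all media, at 2.05, 1.93 and 1.30 CPM in ENR-, 2.24 and 2.34 CPM in -VE- and 2.96, 2.83 and 1.63 CPM in Hyper-organoids, and Hyper- overlapped both ENR- (log2 change 0.49 ± 0.26, edgeR adjusted p = 0.136) and -VE-organoids. Both -VE libraries lay above every ENR library, without a call (log2 change 0.38 ± 0.29, edgeR adjusted p = 0.469). Six2 and Six3, neighbours on chromosome 17 with 55.0 kb between them, had 0 UMIs in all 3 Hyper libraries.

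The LIM-homeodomain genes act in motor neurons, forebrain and kidney. Lhx6 rose from 0.0443 ± 0.00965 CPM (SD, n = 3) in ENR- to 1.03 ± 0.05 CPM (n = 3) in Hyper-organoids, with a log2 change of 4.53. Lhx9 was called against ENR- and not against -VE-organoids, at 0.156 ± 0.015 against 0.0570 ± 0.0326 CPM, and was 0.110 CPM in -VE-organoids (log2 change of -VE- against ENR-organoids 0.95, edgeR adjusted p = 0.276). Lhx1 differed between media in another way. It had 1.501, 0.743 and 0.919 CPM in ENR-, 0.385 and 0.244 CPM in -VE- and 0.631, 3.26 and 1.89 CPM in Hyper-organoids, so that Hyper- and ENR-organoids overlapped (log2 change 0.87 ± 0.54, edgeR adjusted p = 0.203). Without Hyper replicate 1 it was called against ENR-organoids (log2 change 1.30, edgeR adjusted p = 0.0178). It was called against -VE-organoids (2.63 ± 0.68, edgeR adjusted p = 0.0142), a call that was lost without either -VE library. Lhx2, Lhx4 and Lhx8 did not pass the filter.

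Msx1 and Msx2, targets of BMP signalling in limb and craniofacial mesenchyme, were both called. Msx1 rose from 1.05, 0.693 and 0.836 CPM in ENR- and 1.45 and 1.08 CPM in -VE- to 5.68, 5.27 and 7.20 CPM in Hyper-organoids, without overlap. Its log2 change was 2.82 ± 0.21 (edgeR adjusted p = 2.1e-05) against ENR- and 2.25 ± 0.24 (edgeR adjusted p = 0.00025) against -VE-organoids. Msx2 had 372 UMIs over the Hyper libraries and 1 over the -VE libraries, a ratio per effective library size of 266 (95% counting interval 47.5 to 10540, Clopper-Pearson). Emx2, a forebrain and urogenital gene, had 0 UMIs in all ENR and -VE libraries and 51 in the Hyper libraries, at least 13.0-fold higher than ENR- and at least 12.2-fold higher than -VE-organoids with 3 UMIs over the group as the floor. Emx1 did not pass the filter.

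Among the paired-like genes, Pitx1, a hindlimb and pituitary gene, was on in all media: 27.1, 26.0 and 32.0 CPM in ENR-, 29.2 and 30.2 CPM in -VE- and 30.3, 32.7 and 32.4 CPM in Hyper-organoids. Hyper- overlapped ENR-organoids (log2 change 0.17 ± 0.08, edgeR adjusted p = 0.112), and every Hyper library lay above both -VE libraries without a call (log2 change 0.10 ± 0.09, edgeR adjusted p = 0.404). Otx1, a head-patterning gene, was called at 0.710 ± 0.418 CPM in Hyper- against 0.0641 ± 0.0068 CPM in ENR-organoids (log2 change 3.44). Alx4, a limb and skull gene, had 35 UMIs in the Hyper libraries and 0 elsewhere, at least 8.91-fold higher than in ENR- and at least 8.35-fold higher than in -VE-organoids. Otx2 had 20 of its 22 UMIs in Hyper replicate 1. Prrx1, a gene of limb mesenchyme, had 1.84, 2.83 and 2.22 CPM in ENR-, 0.881 and 0.779 CPM in -VE- and 0.672, 2.47 and 2.34 CPM in Hyper-organoids. Hyper replicate 1 lay below all 3 ENR libraries and the other two among them (log2 change -0.34 ± 0.43, edgeR adjusted p = 0.53).

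The TALE proteins are cofactors of Hox proteins (Meis, Pbx) or patterning factors in their own right (Irx). Meis1 rose from 0.0518, 0.0668 and 0.0597 CPM in ENR- and 0.0684 and 0.0183 CPM in -VE- to 1.02, 2.82 and 2.13 CPM in Hyper-organoids (log2 change 5.03 ± 0.53 against ENR-, edgeR adjusted p = 0.000106). Pbx3 was expressed throughout, at 8.86, 7.19 and 9.37 CPM in ENR-, 8.59 and 10.5 CPM in -VE- and 17.5, 20.1 and 19.7 CPM in Hyper-organoids, and was called at a log2 change of 1.17 ± 0.12 against ENR- (edgeR adjusted p = 9.54e-05) and of 1.00 ± 0.14 against -VE-organoids (edgeR adjusted p = 0.000764), the latter at the 2-fold limit and not called with a replicate block for culture series (log2 change 0.96). Meis2 varied between culture series as much as between media: 4.84, 4.24 and 15.5 CPM in ENR-, 4.77 and 13.2 CPM in -VE- and 13.0, 28.0 and 30.6 CPM in Hyper-organoids. It was higher in the Hyper library of each series, but was not called (log2 change 1.55 ± 0.59, edgeR adjusted p = 0.0529). This adjusted p lies near the threshold, and Meis2 was called in 8 of 18 alternatives: with a replicate block for culture series, which took the count to 15, without a filter on low counts, with only the 2 groups fitted, with thinned cells, and without ENR replicate 3, Hyper replicate 1 or either -VE replicate (adjusted p = 0.00631 to 0.153 over the 18, of which edgeR gave both ends and DESeq2 1 value).

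Irx2 had 0.0104, 0.0251 and 0.0119 CPM in ENR-, 0.120 and 0.0426 CPM in -VE- and 0.719, 4.05 and 3.69 CPM in Hyper-organoids (log2 change 7.32 ± 0.91 against ENR-, edgeR adjusted p = 0.000254). Irx1, 665 kb away on chromosome 13, had 1 UMI over the 8 libraries. Irx5 had 1, 0 and 10 UMIs in ENR-, 3 and 5 UMIs in -VE- and 2.35, 6.67 and 2.38 CPM in Hyper-organoids (log2 change 6.61 ± 0.89 against ENR-, edgeR adjusted p = 0.000381). Irx3, 556 kb away on chromosome 8, was at 0.325 ± 0.184 CPM in Hyper- against 0.156 ± 0.00196 CPM in ENR-organoids (log2 change 1.06 ± 0.41, edgeR adjusted p = 0.0523). In both of these Irx pairs the partners had unequal levels in the same Hyper libraries, whereas Six2 and Six3 were both at 0 UMIs there.

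Pdx1, which specifies pancreas and duodenum, was expressed in all media without a called change: 7.06, 6.55 and 16.3 CPM in ENR-, 8.25 and 17.3 CPM in -VE- and 8.86, 9.23 and 15.2 CPM in Hyper-organoids (log2 change 0.16 ± 0.42, edgeR adjusted p = 0.771). Both series C libraries and -VE replicate 2 were the high ones, as for Meis2 in the ENR and -VE libraries. Nkx2-3, a gene of gut mesenchyme, had 31 of its 43 UMIs in Hyper replicate 3. Barx1, a gene of stomach mesenchyme, and Nkx6-2 stayed at or under 0.0407 CPM in every library. The 6 DLX genes, which pattern branchial arches, limbs and forebrain interneurons and sit in pairs on chromosomes 2, 11 and 6 with 9.24 to 15.2 kb between partners, were not called. Only Dlx1 passed the filter, at 0.0734 ± 0.0239 CPM in Hyper- against 0.0723 ± 0.0309 CPM in ENR-organoids.

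**Figure D2:**
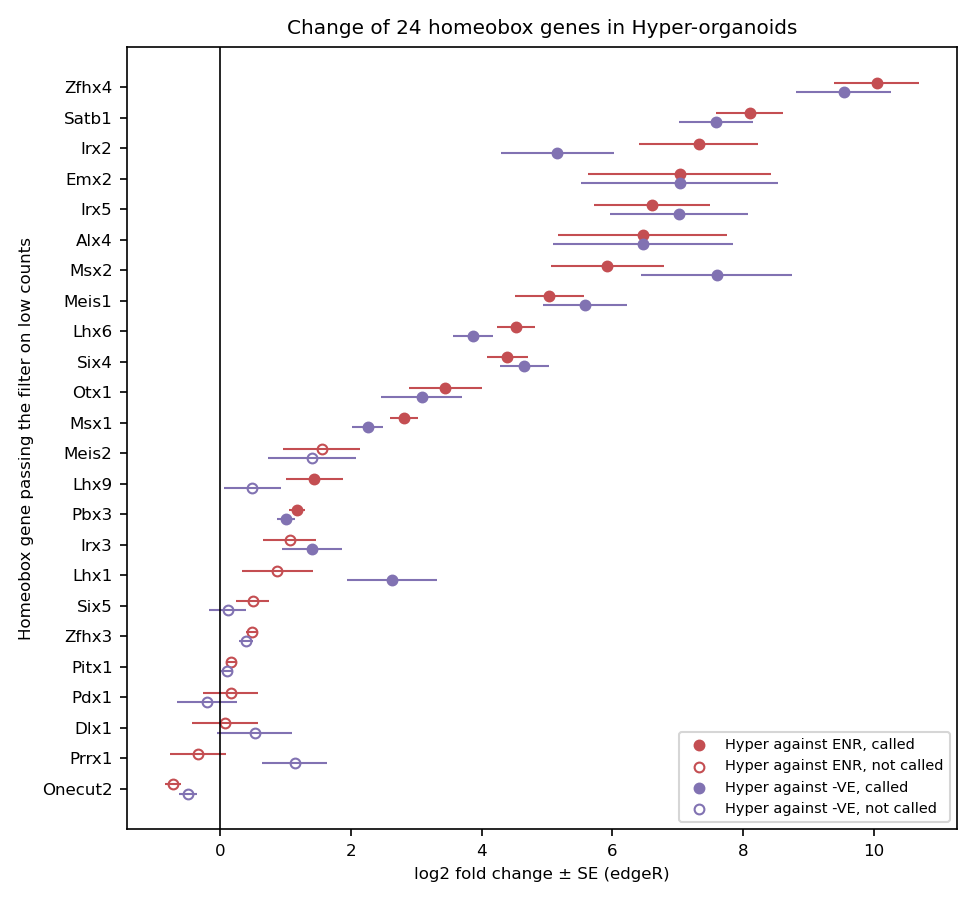
The log2 fold change (x axis, ± SE from edgeR) of the 24 homeobox genes that passed the filter (y axis), in Hyper- against ENR- (red) and -VE-organoids (purple), with called genes filled. The called genes reach from 1.00 for Pbx3 against -VE-organoids to 10.05 for Zfhx4, and Onecut2 lies below 0 in both.

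The size of the rise differed between Hyper libraries. Of the 14 genes called against ENR-organoids, 9 were lowest in Hyper replicate 1, the passage 1 library, 3 in replicate 2 and 2 in replicate 3, given as a description. The same count over all 2913 genes called higher was not read, so this is not shown to be particular to these genes. Zfhx4, Irx2 and Meis1 were 0.719 to 10.9 CPM in replicate 1 and 2.13 to 28.1 CPM in replicates 2 and 3, whereas Msx2 was lowest in replicate 3 (0.390 CPM) and Irx5 was 2.35 and 2.38 CPM in replicates 1 and 3. Six4 and Lhx6 differed little between the 3 libraries. Passage and culture series differ together in these libraries and cannot be told apart.

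A set of 97 other homeobox genes outside the Hox clusters, also chosen with earlier results of these data known, was read for comparison. Of these, 53 passed the filter, and 21 were called higher and 3 lower in Hyper- against ENR-organoids, where 18.2% and 4.75% of all genes tested were. Against -VE-organoids edgeR called 19 higher and none lower, where 16.1% and 2.51% of all genes tested were and 32 of the set had an unadjusted p under 0.05. Mkx (0.0164 to 5.51 CPM), Msx3 (0.0593 to 4.61 CPM) and Meis3 (0.257 to 7.77 CPM) rose from ENR- to Hyper-organoids, and these values are means of 3 libraries. In -VE- against ENR-organoids, 2 of the 97 genes were called higher, Mkx (0.0738 CPM in -VE-organoids, log2 change 2.09, edgeR adjusted p = 0.0201) and Hhex (1.08 to 2.63 CPM, log2 change 1.28, edgeR adjusted p = 0.0102), and none lower, where 1.35% and 1.2% of all genes tested were. The genes called lower were Isx (83.5 to 10.6 CPM), Barx2 (19.8 to 6.90 CPM) and Cdx1 (163 to 81.3 CPM), of which Isx and Cdx1 are intestinal epithelial genes. Of 7 antisense or divergent RNAs beside members, Lhx1os passed the filter. It starts next to Lhx1 on the opposite strand (Lhx1 at chr11:84518284-84525535, Lhx1os at chr11:84525660-84535831, GRCm38) and was 1.42 CPM in Hyper- against 0.483 CPM in ENR-organoids (log2 change 1.55, edgeR adjusted p = 0.0205). The gene models do not overlap, and the strand handling of the counting was not given in the sources used here.

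Promoter windows, from 250 bases before to 50 bases after a transcript start, were read from RefSeq (GRCm38.p6) to compare genes called higher with the other genes in CG dinucleotides, the letters at which DNA is methylated and which are dense at many Polycomb targets. Of the 41 genes, 29 had a window. Zfhx4, Dlx3, Dlx4, Dlx5, Dlx6, Pitx1, Otx1, Pbx3, Irx1, Irx5, Onecut2 and Alx4 had none. For a gene with several windows the first one listed was used. The transcript start in the window lay within 1000 bases of the outermost start of the gene in the files' annotation for 21 of the 29 genes, and further inside the gene for Dlx1, Meis2, Lhx9, Otx2, Six3, Lhx4, Prrx2 and Zfhx3 (1220 to 772000 bases), whose windows stand for an internal transcript start. The median number of CG was 19 in the 29 windows and 7 over the windows of 27025 genes. A window with at least 50% G and C and an observed-to-expected CG ratio of at least 0.6 was found for 19 of the 29 genes (65.5%) and for 34.1% of all genes. Among the 21 genes with a window near the gene start it was found for 13 (61.9%), which were 5 of the 8 called higher against ENR-organoids and 8 of the 13 others. The median number of CG was 19 in these 8 windows and 29 in the 13, and the median observed-to-expected ratio was 0.718 and 0.885, untested. The 13 genes hold some that stayed near 0 and some expressed in all media, such as Pdx1 and Six5. The following 4 windows were chosen after the values were seen, to show 2 genes that rose from near 0 (Meis1 and Msx2), 1 that stayed near 0 (Six2) and 1 expressed in all media (Pdx1). The transcript starts in these windows lay 16, 294, 20 and 138 bases from the outermost gene start. They are written 5′ to 3′ on the gene's strand with each CG in capitals.
Meis1 (chr11:19018920-19019219, minus strand, 15 CG): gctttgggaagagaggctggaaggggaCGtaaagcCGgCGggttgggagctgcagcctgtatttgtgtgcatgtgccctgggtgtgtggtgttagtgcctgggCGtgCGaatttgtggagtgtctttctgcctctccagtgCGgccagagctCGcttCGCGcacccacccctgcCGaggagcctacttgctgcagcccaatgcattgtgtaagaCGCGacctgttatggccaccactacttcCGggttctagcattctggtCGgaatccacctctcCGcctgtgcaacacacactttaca
Msx2 (chr13:53472731-53473030, minus strand, 22 CG): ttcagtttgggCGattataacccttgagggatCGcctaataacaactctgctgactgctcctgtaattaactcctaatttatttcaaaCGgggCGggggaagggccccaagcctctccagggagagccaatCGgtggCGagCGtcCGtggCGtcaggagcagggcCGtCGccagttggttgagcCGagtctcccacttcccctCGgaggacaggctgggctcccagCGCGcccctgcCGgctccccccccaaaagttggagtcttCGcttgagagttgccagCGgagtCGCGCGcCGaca
Six2 (chr17:85688205-85688504, minus strand, 37 CG): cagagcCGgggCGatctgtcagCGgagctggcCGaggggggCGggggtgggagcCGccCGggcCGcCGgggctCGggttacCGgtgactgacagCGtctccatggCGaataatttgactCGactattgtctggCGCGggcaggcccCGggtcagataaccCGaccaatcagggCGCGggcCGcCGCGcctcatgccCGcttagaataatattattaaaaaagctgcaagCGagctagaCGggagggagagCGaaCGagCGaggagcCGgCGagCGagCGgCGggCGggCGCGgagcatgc
Pdx1 (chr5:147269847-147270146, plus strand, 11 CG): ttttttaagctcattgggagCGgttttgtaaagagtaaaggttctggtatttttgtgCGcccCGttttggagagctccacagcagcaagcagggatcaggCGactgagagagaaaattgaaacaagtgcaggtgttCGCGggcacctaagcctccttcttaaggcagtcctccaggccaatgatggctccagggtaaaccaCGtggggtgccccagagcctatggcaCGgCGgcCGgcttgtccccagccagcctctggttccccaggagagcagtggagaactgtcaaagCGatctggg

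Six2, which stayed near 0, had the most CG of the 4 windows, and Pdx1, expressed throughout, the fewest. These windows hold too few genes for more than a description.

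The deposited annotation assigns each kept cell to a class, and levels were read within each class as CPM of the UMIs of that class in a library. A class may hold different clusters of cells in different media. The deposited annotation gives a class and no cluster for the organoid cells, so a change within a class and a change in the clusters that make it up cannot be told apart. Enterocytes fell from 214 to 340 cells in ENR to 7 to 58 cells in Hyper libraries, enterocyte progenitors from 486 to 809 to 2 or 3 cells, while stem cells rose from 229 to 322 to 874 to 1481 cells. Over all cells the 4 stem markers did not move together: Olfm4 was 1534 CPM in ENR- and 209 CPM in Hyper-organoids (edgeR adjusted p = 0.0586), Ascl2 28.2 and 26.2 CPM, while Lgr5 rose from 55.0 to 136 CPM and Cd44 from 38.4 to 82.4 CPM (edgeR adjusted p = 0.000138 and 2.3e-05). These are means, and the libraries differed. Summed without TMM adjustment, the 4 markers were 894, 285 and 263 CPM in Hyper replicates 1, 2 and 3, and 1090 to 1898 CPM in ENR libraries. The classes were made from these same cells, so levels are not tested between classes.

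Within the stem class, 12 genes were called higher against ENR-organoids (15.2% of 13920 genes tested) and 12 against -VE-organoids (14.7%). Within transit amplifying cells there were 14 (17.2% of 14553 genes) and 13 (15.5%). Goblet cells gave 8 (10.7% of 11714 genes) and 6 (8.72%), and enteroendocrine cells 4 (5.96% of 11050 genes) and 2 (3.52%). The goblet count against ENR-organoids was 5 without ENR replicate 1 and 4 without ENR replicate 2 or Hyper replicate 2: Pbx3 lost its call in 2 of 11 alternatives, and Meis1 and Irx2 in 5 each (without any 1 ENR library, Hyper replicate 2 or Hyper replicate 3). In stem cells Otx1 lost it without ENR replicate 1 or 2. None was called lower in stem, transit amplifying and goblet cells, where 2.8%, 3.78% and 2.64% of genes tested were called lower against ENR- and 1.76%, 2.32% and 1.15% against -VE-organoids, so that 0 of the 14 to 21 genes tested is near the background. Fewer of the genes passed the filter in the smaller classes, from 21 in transit amplifying to 10 in enteroendocrine cells. Zfhx4 and Satb1 were called higher in all 4 classes and in both comparisons. Zfhx4 reached 23.1 ± 9.8 CPM in stem, 24.1 ± 11.1 in transit amplifying, 20.1 ± 8.5 in goblet and 35.8 ± 12.1 CPM in enteroendocrine cells of Hyper-organoids (SD, n = 3), against at most 0.493 CPM on average in any of these classes of ENR-organoids. Satb1 reached 5.72 ± 2.07, 5.96 ± 2.13 and 6.16 ± 2.37 CPM in stem, transit amplifying and goblet cells and 21.1 ± 3.4 CPM in enteroendocrine cells. In the enterocytes of Hyper-organoids there was 1 UMI of Satb1, and Zfhx4 had 1, 38 and 13 UMIs, or 2.35, 15.6 and 13.4 CPM. Meis2 was called within each of the 4 classes against ENR-organoids, for instance at 26.6 ± 9.8 against 5.43 ± 5.52 CPM in stem cells (log2 change 2.34 ± 0.63, edgeR adjusted p = 0.0123), and in none of them against -VE-organoids (edgeR adjusted p = 0.0565 to 0.133), although with a replicate block for culture series it was called against -VE-organoids in stem, goblet and enteroendocrine cells. The call against ENR-organoids was lost without ENR replicate 1 in stem cells, without ENR replicate 1 or 2 or Hyper replicate 2 in goblet and transit amplifying cells, without Hyper replicate 3 in transit amplifying cells, and under DESeq2 in goblet cells, but in no alternative in enteroendocrine cells.

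**Figure D3:**
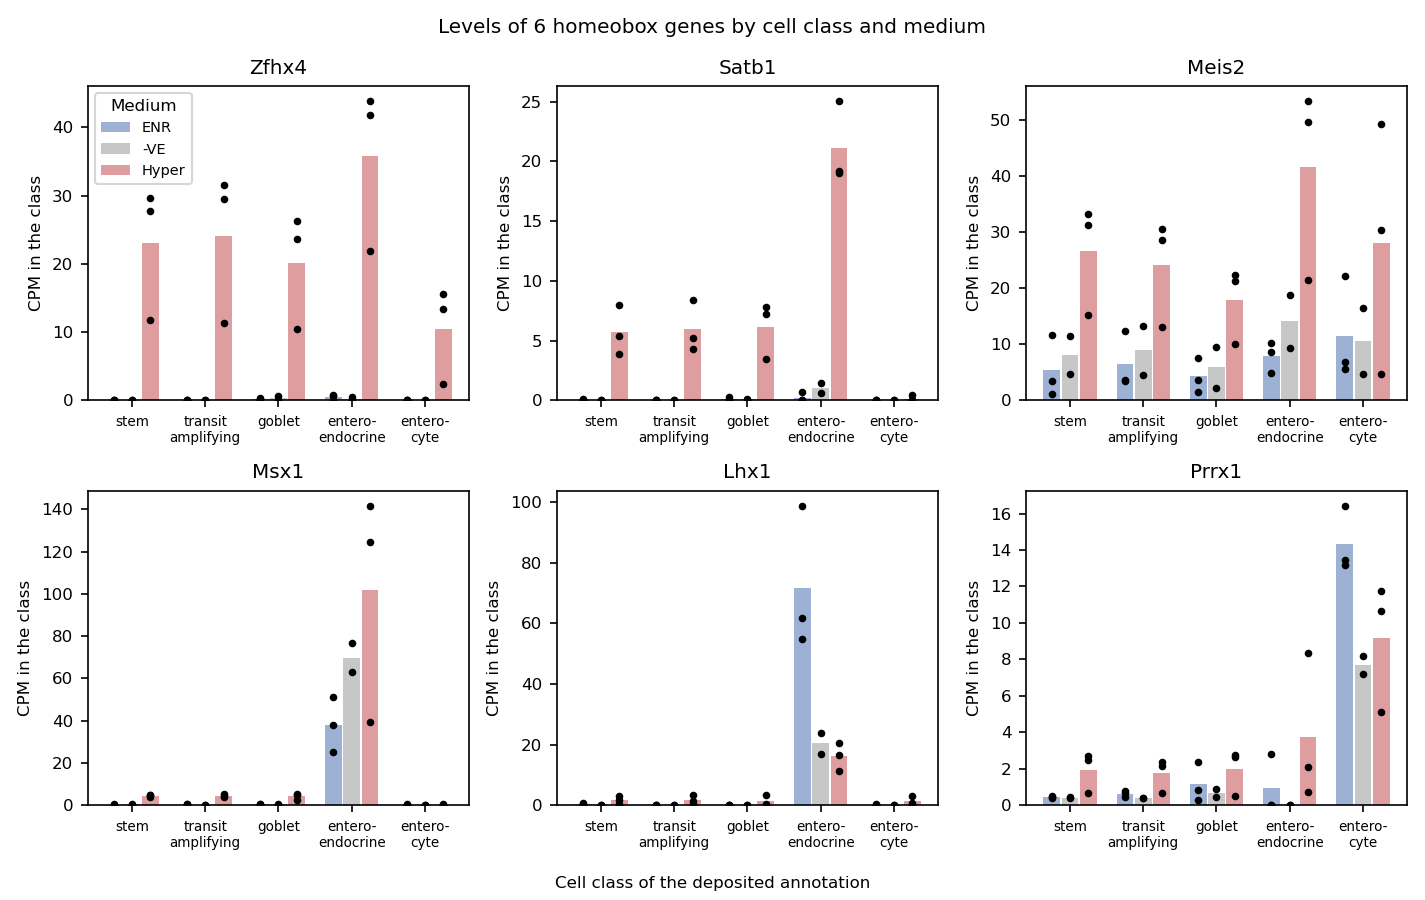
CPM within a cell class (y axis) for 6 homeobox genes in 5 classes of the deposited annotation (x axis), with bars at the mean of the libraries of a medium and 1 point per library. Zfhx4 and Satb1 are near 0 outside Hyper-organoids and appear there in stem, transit amplifying, goblet and enteroendocrine cells, and Zfhx4 also in enterocytes (10.4 ± 7.1 CPM). Msx1 and Lhx1 sit in enteroendocrine cells and Prrx1 in enterocytes of ENR-organoids. In enteroendocrine cells Lhx1 is lower on average in both Hyper- and -VE- than in ENR-organoids.

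Several genes that were not silent in ENR-organoids sat in 1 class. Of the 311 Lhx1 UMIs in the ENR libraries, 265 (85.2%) came from enteroendocrine cells, the hormone-secreting cells, which numbered 61 to 79 per library. Lhx1 was 71.7 ± 23.6 CPM (SD, n = 3) in that class of ENR-organoids and at most 0.408 CPM on average in stem, transit amplifying, goblet and enterocyte cells. In Hyper-organoids it fell to 16.2 ± 4.7 CPM in enteroendocrine cells and was 20.4 CPM in -VE-organoids. The log2 change was -2.09 ± 0.26 against ENR-organoids (edgeR adjusted p = 0.00051), and Lhx1 was the only one of the 41 genes called lower in a class of Hyper-organoids (1.44% of genes tested in that class were called lower). Against -VE-organoids Lhx1 was not called in that class (log2 change -0.37 ± 0.32, edgeR adjusted p = 0.588). Of the 4 enteroendocrine markers, read over all cells from ENR- to Hyper-organoids, Cck was called lower (136 to 35.7 CPM, edgeR adjusted p = 0.0193) and Neurog3, a gene of enteroendocrine progenitors, higher (8.41 to 22.6 CPM, edgeR adjusted p = 8.58e-05). These levels are means, and the libraries differed. Summed without TMM adjustment, the 4 markers were 512, 284 and 289 CPM in ENR and 157, 341 and 329 CPM in Hyper replicates 1, 2 and 3. Chga and Chgb did not pass the test (edgeR adjusted p = 0.642 and 0.585), and the part of these markers in the Lhx1 result was not tested. In -VE- against ENR-organoids Lhx1 was called lower in that class as well, where 0.0724% of genes tested were (log2 change -1.72 ± 0.30, edgeR adjusted p = 0.0480), and this call was lost in 6 of 11 alternatives, the replicate block among them. Over the cells of all other classes together, Lhx1 was called higher in Hyper- than in ENR-organoids (log2 change 3.38). In transit amplifying cells Lhx1 was 1.81 ± 1.46 CPM in Hyper- against 0.0739 ± 0.0295 CPM in ENR-organoids (log2 change 4.48 ± 0.78, edgeR adjusted p = 0.00134), and in stem cells 1.81 ± 1.36 against 0.408 ± 0.287 CPM. The difference of the Hyper against ENR change between enteroendocrine and stem cells was tested as an interaction and was -4.06 ± 0.59 for Lhx1 (log2, edgeR adjusted p = 2.81e-05). It was called for 1 of the 41 genes, where 7.81% of 14555 genes were called either way. For transit amplifying and goblet against stem cells edgeR called none of the 41 genes, where 0.55% and 3.35% of genes were called and 7 and 3 of the 21 genes tested had an unadjusted p under 0.05.

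Msx1 also sat in enteroendocrine cells, with 139 of its 254 UMIs in the ENR libraries (54.7%), at 38.2 ± 13.0 CPM in that class. It rose there to 102 ± 55 CPM in Hyper-organoids (log2 change 1.51 ± 0.41, edgeR adjusted p = 0.0302), a call that was lost in 6 of 11 alternatives (DESeq2, and without any 1 ENR library, Hyper replicate 1 or Hyper replicate 3), and against -VE-organoids it was not called there (log2 change 0.53, edgeR adjusted p = 0.534). It also rose in stem cells from 0.325 ± 0.063 to 4.59 ± 0.53 CPM (log2 change 3.66 ± 0.29, edgeR adjusted p = 1.68e-05). Prrx1 sat in enterocytes, which gave 442 of its 703 UMIs in the ENR libraries (62.9%) at 14.4 ± 1.8 CPM. In stem cells it rose from 0.448 ± 0.049 to 1.96 ± 1.12 CPM (log2 change 1.99 ± 0.59, edgeR adjusted p = 0.0191) and in transit amplifying cells from 0.640 ± 0.148 to 1.76 ± 0.92 CPM (log2 change 1.33 ± 0.44, edgeR adjusted p = 0.0301), while over all cells its level did not pass the test. Neither call held throughout when 1 library was left out: in stem cells it was lost without any 1 ENR library or Hyper replicate 2, and in transit amplifying cells also without Hyper replicate 3. Onecut2 was 204 ± 37 CPM in enteroendocrine cells, 149 ± 14 CPM in enterocytes and 83.7 ± 10.1 CPM in stem cells of ENR-organoids. In Hyper-organoids it was 75.1 ± 8.7 CPM in stem and 66.0 ± 2.2 CPM in transit amplifying cells, where ENR-organoids had 102 ± 12 CPM. Zfhx3 was highest in enteroendocrine cells of ENR-organoids, at 96.2 ± 3.4 CPM against 50.3 ± 3.4 CPM in stem cells. Its change from ENR- to Hyper-organoids was not called in any of the 4 classes and differed in sign. The log2 change was 0.06 ± 0.11 in stem (edgeR adjusted p = 0.673) and 0.30 ± 0.08 in transit amplifying cells (0.0152). It was 0.41 ± 0.10 in goblet (0.00888) and -0.49 ± 0.15 in enteroendocrine cells (0.0491).

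Cells of different depth were compared after each was thinned to 10000 UMIs, which left out 63 to 280 shallower cells per library. The 31 genes under 1 CPM in every ENR library were then read together. At least 1 of them had a UMI in 0.957% to 1.15% of the cells of ENR-, 0.797% to 0.826% of -VE- and 22.1%, 41.1% and 35.0% of Hyper-organoids. At least 2 of them had a UMI in 2.11%, 7.96% and 6.04% of Hyper cells and in at most 0.04995% of cells of any ENR or -VE library. The 31 genes were picked by their ENR level, so their low ENR share is fixed by that choice, whereas the -VE and Hyper shares are not. Zfhx4 gave the most Hyper UMIs of the 31 genes, 8438, followed by Satb1 with 2288, so the shares do not stand for each gene. Other genes equally low in ENR-organoids were not read for comparison. Zfhx4 had a UMI in 10.7%, 23.1% and 22.7% of thinned Hyper cells (36.1%, 60.8% and 61.4% before thinning) and in 1 of 2002, 0 of 2508 and 0 of 2214 thinned ENR cells. Most other genes were found in few cells: Satb1 in 4.29% to 7.55%, Msx1 in 4.33% to 5.83% and Six4 in 1.82% to 1.96% of thinned Hyper cells. Such shares depend on depth and do not say how many cells express a gene. Median depth before thinning was 38999 to 48042 UMIs in Hyper- and 38173.5 to 47868 UMIs in ENR-organoids.

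**Figure D4:**
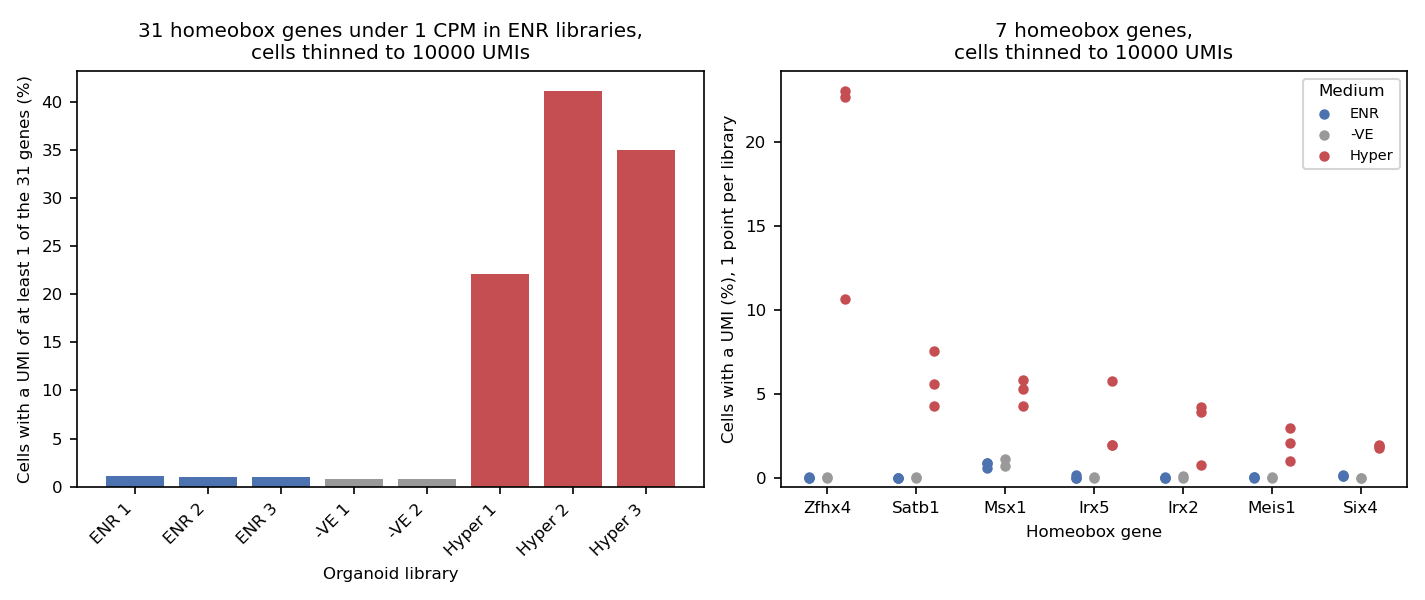
Left, the share of cells (y axis, %) with a UMI of at least 1 of the 31 homeobox genes under 1 CPM in every ENR library, by organoid library (x axis). Right, the share of cells with a UMI for each of 7 homeobox genes, 1 point per library, with all cells thinned to 10000 UMIs; the Hyper libraries lie at 22.1% to 41.1% on the left and above the other libraries for each gene on the right.

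In colonic crypts there was 1 library of each kind, so no test was made, and intervals are exact Poisson 95% intervals that cover counting error only. There were 1132 kept cells (19906845 UMIs) from normal and 1933 (32397122 UMIs) from DSS-treated mice, and 15 of the 41 genes had 0 UMIs in both. Zfhx4 had 5 UMIs (0.251 CPM, 0.0816 to 0.586) in the normal and 3 UMIs (0.0926 CPM, 0.0191 to 0.271) in the DSS library. Satb1 was 5.22 CPM (4.27 to 6.33) in the normal and 7.19 CPM (6.30 to 8.18) in the DSS library. It lay mainly in cells with a Ptprc UMI, at 85.9 and 82.3 CPM, against 1.00 and 2.01 CPM in the other cells. Zfhx3 was 23.5 CPM (21.4 to 25.7) and 21.1 CPM (19.5 to 22.7), Pbx3 2.56 CPM (1.91 to 3.37) and 3.06 CPM (2.48 to 3.72), and Six5 1.05 CPM (0.653 to 1.61) and 1.20 CPM (0.856 to 1.65), with overlapping intervals for each gene. Onecut2 and Pitx1, abundant in the small intestinal organoids, had 0 UMIs in the normal library (upper limit 0.185 CPM by the Poisson interval, 0.151 CPM by the floor of 3 UMIs), and 9 UMIs (0.278 CPM, 0.127 to 0.527) and 7 UMIs (0.216 CPM, 0.0869 to 0.445) in the DSS library. Pdx1 had 4 UMIs (0.201 CPM, 0.0547 to 0.514) and 14 UMIs (0.432 CPM, 0.236 to 0.725). Meis1 had 1 UMI in the normal and 9 UMIs in the DSS library, and Irx5, Otx1, Emx2 and Alx4 had 0 in both.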

How the data were processed

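Single-cell libraries were prepared with a droplet-based 3′ kit, and the authors deposited UMI counts per gene and cell, made with Cell Ranger (3.0.0 in the submitters' processing notes, 3.1.0 in the matrix header) on mm10, and a table of the cells kept and their classes (Seurat 3.1.4 in the processing notes). The strand setting of the counting was not given in the sources used here. The study names limits of 1500 genes (minimum) and 25% mitochondrial reads (maximum), whereas the kept cells include cells with fewer genes. The 25204 kept cells were used as deposited, and no doublets were removed. The members and lists were chosen with earlier results of these data known.

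UMI counts were summed per library, or per library and class of at least 30 cells, and fitted over the 8 organoid libraries with edgeR 4.0.16 (TMM, quasi-likelihood test, R 4.3.3, limma 3.58.1) after its filter on low counts. DESeq2 1.42.0 was an alternative. Adjusted p-values are Benjamini-Hochberg over all genes tested. Levels of single genes over all cells of organoids are TMM-adjusted CPM, and levels within a class are CPM of the UMIs of that class. Sums of marker lists and levels in colon are CPM without TMM adjustment. Genes named with values in every library were the 16 with the highest mean CPM over the 8 libraries, with the others given by family. Exact intervals were made with scipy 1.17.1 and cover counting error only. Figures were drawn with matplotlib 3.10.9.

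Whether replicate numbers pair the libraries was checked with the correlation, over 16037 genes, of each library's deviation from its group mean. The numbers follow the sample names, and the labels themselves do not speak of culture series. For ENR- and Hyper-organoids of 1 series it was 0.192, 0.170 and 0.436. It was 0.0619 for ENR replicate 1 with Hyper replicate 2, and 0.129 for ENR replicate 2 with Hyper replicate 1. Pairs of ENR- and Hyper-organoids with only 1 library from series C gave -0.292 to -0.179. These values mainly set series C apart and do not clearly show that replicates 1 and 2 are paired. The main fits used no pairing, and the replicate block was an alternative. Other settings tried were other filters and cell sets, 2 groups alone, thinning, and leaving out each library in turn.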

Additional observations from a re-analysis of the deposited data

Results flagged for a closer look

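For Lhx1, a LIM-homeodomain gene, the Hyper against ENR change differed between cell classes by the test of the difference itself. The change in enteroendocrine cells minus that in stem cells was -4.06 ± 0.59 (log2, SE, edgeR's quasi-likelihood test, adjusted p = 2.81e-05). The level was lower in enteroendocrine cells of Hyper-organoids (16.2 against 71.7 CPM in ENR-organoids, n = 3 libraries each) and higher in stem cells (1.81 against 0.408 CPM), where the change of 2.07 ± 0.81 did not pass the test (edgeR adjusted p = 0.0582). In enteroendocrine cells -VE-organoids were also lower than ENR-organoids (log2 change -1.72 ± 0.30, edgeR adjusted p = 0.0480), a call lost in 6 of 11 alternatives. Hyper- against -VE-organoids was not called there (log2 change -0.37 ± 0.32, edgeR adjusted p = 0.588). The deposited classes were made from the same cells, and their part in this difference was not tested.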

How the results depend on the processing

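Of the 14 genes called higher against ENR-organoids, 13 kept the call in every alternative in which they were tested, and Lhx9 lost it under DESeq2. Of the 15 called against -VE-organoids, 10 did, Lhx1 lost it without either -VE replicate, Emx2 and Alx4 without -VE replicate 2, Pbx3, which lies at the 2-fold limit, in 6 alternatives, the replicate block among them (lowest 0.88, without -VE replicate 1) and Irx3 in 7 (lowest 0.84, without Hyper replicate 1). Not every called gene passed the filter in all 18 alternatives. Emx2 and Alx4 were tested in 13 of them against ENR- and in 14 against -VE-organoids. Msx2 and Otx1 were tested in 17 in both comparisons, Lhx9 in 16 against ENR- and Irx3 in 16 against -VE-organoids. The share of all genes called is not given for the alternatives, so their counts describe only these genes. A minimum of 1 CPM in 2 libraries left 17 of the 41 genes tested, against 24, and 9 called against ENR-organoids. In -VE- against ENR-organoids 2 genes (Lhx1 and Prrx1, lower) were called under DESeq2 and 2 with only the 2 groups fitted. Without a filter on low counts, 13 and 10 genes were called in goblet cells against ENR- and -VE-organoids, 8 and 7 in enteroendocrine cells, and 1 and 3 for the difference of transit amplifying and enteroendocrine from stem cells. More of the genes were tested there: 28 instead of 14 in goblet cells, 30 instead of 10 in enteroendocrine cells, and 39 instead of 21 for the differences. The enteroendocrine 8 were 7 called higher and Lhx1 called lower. Leaving out 1 library at a time gave 13 to 16 genes against ENR-, 11 to 15 against -VE-organoids and 0 to 2 for -VE against ENR (2 without Hyper replicate 1). Within classes, against ENR- and -VE-organoids, it gave 9 to 13 and 10 to 13 in stem and 12 to 14 and 11 to 13 in transit amplifying cells. Goblet cells gave 4 to 9 and 4 to 9, and enteroendocrine cells 4 to 6 and 2 to 3. The enteroendocrine 4 to 6 hold Lhx1, called lower each time, and 3 to 5 genes called higher. For the difference of transit amplifying and enteroendocrine from stem cells it gave 0 to 0 and 1 to 3 (Lhx1 with Msx1, Pdx1 or Irx2 without ENR replicate 3 or a Hyper library). In goblet cells 5 were called without ENR replicate 1 and 4 without ENR replicate 2 or without Hyper replicate 2. With the culture series as a replicate block, 15, 14 and 0 genes were called in the 3 comparisons over all cells, and Meis2 was called against ENR-organoids, as in 7 other alternatives. The log2 change turned sign for Lhx1 against ENR-organoids with thinned cells (-0.17) and, with 1 library left out, for Six5 against -VE-organoids (-0.029 without Hyper replicate 1, to 0.34), Prrx1 against ENR-organoids (-0.62 to 0.068, the latter without Hyper replicate 1), Pdx1 against ENR-organoids (-0.13 to 0.71, below 0 without ENR replicate 1 or 2 or Hyper replicate 3) and Pdx1 against -VE-organoids (-0.63 to 0.44, the latter without -VE replicate 2), none of which was called there with all libraries, although Lhx1 was called against ENR-organoids without Hyper replicate 1 and without the enteroendocrine class. The causes were not tested. Genes with few UMIs in all libraries are limited by depth.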
